A study of Mus musculus with 6 samples.

Results

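Eph receptors and ephrins were followed in the epithelial cells of mouse colonic tumours. The 10 members, chosen by gene symbol, were the receptors Ephb2, Ephb3, Ephb4, Ephb6, Epha2 and Epha1 and the ligands Efnb1, Efnb2, Efna1 and Efna4. Each symbol belonged to 1 of the 31053 features measured, and another 12 Eph and ephrin genes were read beside them. Single-cell RNA was measured in 6 libraries from tumours of male mice, 3 for each of the tumour models named Apc ICI and AOM PN. Both models carried VilCreER, a tamoxifen-inducible Cre driven by the villin promoter and so aimed at intestinal epithelium. Apc ICI mice were Apc fl/fl, with Cre activated in the colon itself, by 1 dose of 70 µl 4-OH tamoxifen at 100 µM placed in the submucosa. AOM PN mice, labelled as an ageing tumour group, were P53 fl/fl Notch1Tg and received 2 mg tamoxifen into the peritoneum. From day 4 after tamoxifen they were given azoxymethane (AOM), a colon carcinogen, at 10 mg/kg weekly for 6 weeks. The models therefore differ in genotype, route of induction and carcinogen at once, and these cannot be told apart. Tumours were taken at clinical endpoint and dissociated whole, dead cells were sorted out with DAPI, and the sources used here give no ages.

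Eph receptors are the largest family of receptor tyrosine kinases, and their ephrin ligands are themselves bound to the membrane, so that signalling needs contact between cells and can run in both directions. A-type ephrins are held by a lipid anchor and B-type ephrins span the membrane. In the intestine EphB2 and EphB3 are targets of Wnt signalling and are high at the crypt base, while ephrin-B1 and ephrin-B2 are high towards the surface, and the repulsion between them keeps cells in order along the crypt axis. EphB2 and EphB3 are known to be high in early intestinal adenomas and are often lost later in colorectal cancer. EphB6 lacks kinase activity.

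Each unique molecular identifier (UMI) stands for 1 captured RNA molecule. Libraries held 59309093 to 98583066 UMIs. Clusters with epithelial markers, formed without Eph or ephrin genes among the variable genes, gave 2150 epithelial-like cells in Apc ICI (518, 957 and 675 by library) and 2094 in AOM PN (949, 664 and 481). All 8 epithelial markers were detected in the sums of every library. The epithelial-like cells of AOM PN were shallower, with median UMIs of 1185, 1639 and 1383 against 5071, 7021 and 2973 in Apc ICI. Of 64505 barcodes, 450 occurred in 2 or more libraries. Trp53 stood at 144 CPM (UMIs of a gene scaled to a common total) in Apc ICI and 60.1 in AOM PN, Notch1 at 34.9 and 63.9, and Apc at 77.9 and 69.7. The sources used here do not give the floxed exons, and a 3′ tag outside them checks nothing.

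Among the members, Ephb3, Efnb2 and Efnb1 rose and Ephb6 fell in AOM PN epithelial-like cells. Their genes lie on chromosome 16 (21204755 to 21223305, plus strand), chromosome 8 (8617434 to 8661242, minus strand), chromosome X (99136130 to 99148991, plus strand) and chromosome 6 (41605482 to 41620509, plus strand) of GRCm38. The bases upstream of their start sites are shown because these are the members that moved. They are the 250 bases before the RefSeq start (build GRCm38.p6), with each GC box core (GGGCGG or its reverse complement CCGCCC) in capitals.
Ephb3, chr16:21204545-21204794, plus strand: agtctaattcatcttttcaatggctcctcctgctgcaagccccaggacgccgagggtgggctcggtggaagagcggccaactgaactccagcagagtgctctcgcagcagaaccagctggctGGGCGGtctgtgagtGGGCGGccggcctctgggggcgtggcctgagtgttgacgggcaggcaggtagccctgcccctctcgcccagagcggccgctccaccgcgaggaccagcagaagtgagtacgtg
Efnb2, chr8:8661243-8661492, minus strand: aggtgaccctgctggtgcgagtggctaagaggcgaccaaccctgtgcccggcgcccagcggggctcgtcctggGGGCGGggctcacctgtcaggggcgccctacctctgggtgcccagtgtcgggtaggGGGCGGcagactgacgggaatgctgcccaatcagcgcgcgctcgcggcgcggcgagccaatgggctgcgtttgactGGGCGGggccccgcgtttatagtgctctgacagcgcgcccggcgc
Efnb1, chrX:99135811-99136060, plus strand: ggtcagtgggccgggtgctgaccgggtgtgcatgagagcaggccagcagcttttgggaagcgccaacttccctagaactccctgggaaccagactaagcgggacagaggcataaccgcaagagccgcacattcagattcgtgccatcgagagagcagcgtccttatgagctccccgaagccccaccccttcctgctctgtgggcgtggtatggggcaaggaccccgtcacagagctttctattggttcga
Ephb6, chr6:41605261-41605510, plus strand: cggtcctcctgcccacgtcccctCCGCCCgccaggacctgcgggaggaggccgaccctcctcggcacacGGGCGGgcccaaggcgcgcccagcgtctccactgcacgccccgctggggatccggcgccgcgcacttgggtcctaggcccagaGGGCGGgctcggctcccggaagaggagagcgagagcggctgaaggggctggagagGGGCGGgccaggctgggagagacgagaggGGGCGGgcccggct

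The GC box core was found 2 times for Ephb3, 3 times for Efnb2, 5 times for Ephb6 and 0 times for Efnb1, and in 32.7% of all 32851 such windows. It was present for 7 of the 10 members. All motifs were read on both strands. The TCF/LEF core, as CTTTGA (13.8% of windows) or CTTTGT (16.5%), was present for Epha2 and Efna4 and not in the windows shown, nor in that of Ephb2. The RBPJ core TGGGAA (21.6% of windows) was present for Efnb1. The motif cores did not overlap one another in letters, and a match or its absence in so short a window is a description of the letters.

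UMIs were summed per library and scaled to CPM with TMM factors, and edgeR's quasi-likelihood test was run on all genes with Benjamini-Hochberg adjustment. Of the 10 members, 4 passed at an adjusted p of 0.05, with 3 higher and 1 lower in AOM PN. Over all 11982 genes tested, 34.8% passed, 18.1% higher and 16.7% lower, so the share of members that moved was near that of all genes. Library values did not overlap between groups for 6 of 10 members, against 49.3% of all genes. The median member changed by 0.34 on the log2 scale and the median gene by 0.0058. Nothing in the labels says whether each library came from its own animal. The p-values then describe the variation among these libraries, which may be technical.

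**Figure D1:**
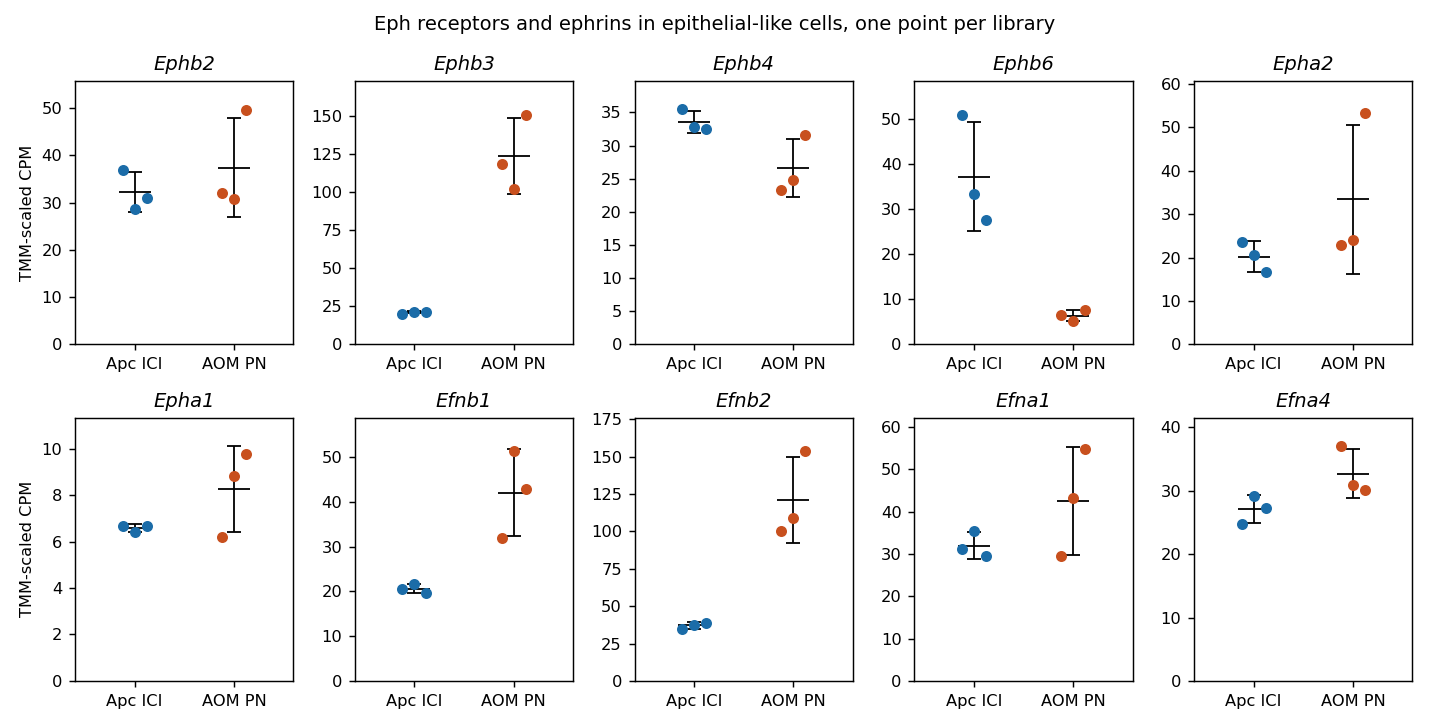
Level of each member in the summed epithelial-like cells of each library, in TMM-scaled CPM; points are libraries, bars the mean and SD of 3 libraries. Ephb3, Efnb2 and Efnb1 stand higher in all 3 AOM PN libraries, Ephb6 stands lower, and the other 6 members differ less.

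Ephb3, the crypt-base receptor, was the receptor that rose. Its level was 20.2, 21.4 and 21.5 CPM in the 3 Apc ICI libraries and 119, 102 and 151 CPM in AOM PN. The lowest AOM PN library thus stood well above every Apc ICI library. The log2 change was 2.55 ± 0.18 (SE, n = 3 and 3, edgeR adjusted p = 2.7e-05).

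Ephb2, usually named with Ephb3, did not pass. Its level was 36.9, 28.7 and 31.0 CPM in Apc ICI and 32.0, 30.7 and 49.6 CPM in AOM PN. The groups overlapped, and the highest value was AOM PN 3. The log2 change was 0.18 ± 0.22 (edgeR adjusted p = 0.56), and it was -0.04 without AOM PN 3. Ephb2 and Ephb3 were not tested against each other.

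Ephb6, the kinase-dead receptor, was the member that fell. Apc ICI libraries held 50.9, 33.3 and 27.6 CPM of it, and AOM PN libraries 6.55, 5.07 and 7.51 CPM. All AOM PN libraries lay far below the lowest Apc ICI library, and the log2 change was -2.60 ± 0.30 (edgeR adjusted p = 0.00022). Behind these values were 1085 Apc ICI UMIs and 47 AOM PN UMIs.

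Ephb4, the receptor of ephrin-B2 that is best known from veins, measured 35.5, 32.8 and 32.5 CPM in Apc ICI and 23.3, 24.8 and 31.6 CPM in AOM PN. The groups did not overlap, but the log2 change of -0.36 ± 0.17 did not pass (edgeR adjusted p = 0.14). It passed as lower in AOM PN without AOM PN 3 (-0.48, adjusted p = 0.039), with predicted doublets kept (-0.60, adjusted p = 0.0034) and with cells chosen by a marker gate in place of clusters (-0.59, adjusted p = 0.036).

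The A-type receptors did not pass. Epha2, which is found on many epithelia and carcinomas, measured 23.5, 20.6 and 16.6 CPM in Apc ICI and 22.9, 24.02 and 53.3 CPM in AOM PN. A single library, AOM PN 3, stood apart, and the log2 change was 0.64 ± 0.31 (edgeR adjusted p = 0.14). Epha1, an epithelial receptor of low level here, measured 6.68, 6.40 and 6.68 CPM against 6.19, 8.81 and 9.77 CPM, a log2 change of 0.30 ± 0.27 (edgeR adjusted p = 0.42). Epha1 overlaps Zyx on the opposite strand, and the sources used here do not say whether counting used strand.

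Both B-type ligands rose. Efnb2, a ligand of EphB receptors that also marks arteries, measured 34.8, 37.5 and 39.0 CPM in Apc ICI and 100.4, 109 and 154 CPM in AOM PN. The groups were far apart, with a log2 change of 1.70 ± 0.19 (edgeR adjusted p = 0.00018). Efnb1, the ligand most tied to differentiated intestinal cells, measured 20.6, 21.8 and 19.7 CPM in Apc ICI and 32.0, 51.5 and 42.8 CPM in AOM PN. Its groups were apart as well, and the log2 change was 1.03 ± 0.20 (edgeR adjusted p = 0.0035).

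The A-type ligands did not pass. Efna1 measured 31.1, 35.4 and 29.4 CPM in Apc ICI and 29.5, 43.2 and 54.8 CPM in AOM PN, with overlapping groups and a log2 change of 0.38 ± 0.22 (edgeR adjusted p = 0.22). Efna4 measured 24.8, 29.2 and 27.2 CPM in Apc ICI and 37.1, 31.0 and 30.05 CPM in AOM PN. Its groups were apart by a small step, with a log2 change of 0.28 ± 0.17 (edgeR adjusted p = 0.24), which passed when predicted doublets were kept (0.37, adjusted p = 0.026).

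The balance of B-type receptors and ligands was read as a ratio within each library, which does not depend on scaling. The log2 ratio of summed EphB receptor UMIs to summed ephrin-B UMIs was 1.36, 0.95 and 0.92 in Apc ICI and 0.45, 0.02 and 0.28 in AOM PN. Receptors exceeded ligands in every library of these sums. The difference was -0.83, and an exact permutation test (two-sided) gave p = 0.1, the smallest that 3 against 3 libraries allow. In cells thinned to 1500 UMIs the groups overlapped, with 1.56, 0.42 and 0.77 in Apc ICI against 0.76, -0.25 and 0.50 in AOM PN. The difference was then -0.58 (exact permutation p = 0.4), in the same direction. The SDs were 0.59 in Apc ICI and 0.52 in AOM PN, against 0.24 and 0.22 before thinning. Thinning also left out cells and UMIs, and the part of depth in the gap was not tested. With Ephb2 and Ephb3 over Efnb1 and Efnb2 alone the difference was 0.10 in the other direction (exact permutation p = 0.7).

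Of the other 12 family genes, 4 had enough counts for a test and 3 of these passed, again beside 34.8% of all genes. Epha4, a receptor that binds ligands of both types, rose from 14.4 ± 2.32 CPM to 46.9 ± 3.93 CPM (mean ± SD, n = 3), with a log2 change of 1.68 ± 0.18 (edgeR adjusted p = 0.00016). Efna3 rose by 2.05 ± 0.45 on the log2 scale (adjusted p = 0.0064), from 1.94 to 8.83 CPM. Its gene lies between Efna4 and Efna1 on chromosome 3. Efna2 fell, from 26, 49 and 12 UMIs in Apc ICI to 1, 1 and 0 UMIs in AOM PN (adjusted p = 0.0033). Epha7 changed by 0.39 ± 0.67 (adjusted p = 0.69). The 8 genes without a test held 0 to 19 UMIs in a library.

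A list of 52 signalling partners of the family was read from the same fit, chosen by textbook role. Of the 49 tested, 10 rose and 5 fell, a share close to the 34.8% of all genes, and the list's median log2 change was 0.11. The largest rises were in Ngef (2.09 ± 0.23, adjusted p = 0.00015), the exchange factor ephexin that acts downstream of EphA receptors, in Abl1 (1.70 ± 0.24, adjusted p = 0.00064), a tyrosine kinase, and in Rgs3 (1.20 ± 0.22, adjusted p = 0.0026), which acts downstream of B-type ephrins. The largest falls were in Grb10 (-2.28 ± 0.71, adjusted p = 0.032) and Grb7 (-0.92 ± 0.16, adjusted p = 0.0020), both adaptors, and in Fyn (-1.65 ± 0.38, adjusted p = 0.0078), a Src-family kinase recruited by Eph receptors and ephrins. Adam10, the protease that sheds ephrins, also fell (-0.70 ± 0.16, adjusted p = 0.0092) and is named here after its value was seen.

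Cell depth could set these values, so the share of cells with a UMI was taken after each cell was thinned to 1500 UMIs. This left out 559 of 2150 Apc ICI cells and 1147 of 2094 AOM PN cells as shallower. Ephb3 was detected in 5.33%, 3.57% and 3.04% of thinned Apc ICI cells and in 17.3%, 18.6% and 24.8% of AOM PN cells. Efnb2 was detected in 6.13%, 7.14% and 7.39% against 14.4%, 19.5% and 19.7%. Efnb1 was detected in 2.40%, 2.65% and 2.83% against 3.20%, 7.63% and 5.05%. Ephb6 was detected in 6.67%, 5.29% and 5.0% against 2.13%, 1.13% and 1.38%. For these 4 members the groups did not overlap, each with an exact permutation p of 0.1, the smallest the design allows, and 0.25 after adjustment over the 10 members. With predicted doublets kept Efnb1 overlapped, at 3.49%, 2.40% and 3.27% against 4.27%, 6.07% and 3.10%, and its difference of 2.67 percentage points went to 1.43 (exact permutation p = 0.3). Without AOM PN 2 it was 1.499 percentage points. The other 6 overlapped or differed with a larger p. In neutrophil-like cells the highest share in any library after the same thinning was 0.313%, for Efnb1. Without thinning, every member except Ephb3 and Efnb2 was detected more often, by group mean, in the deeper Apc ICI cells. The difference for Efnb1, for example, turned to -8.17 percentage points. Ephb3 still differed by 10.3 percentage points towards AOM PN (exact permutation p = 0.2), and Efnb2 by 0.587.

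**Figure D2:**
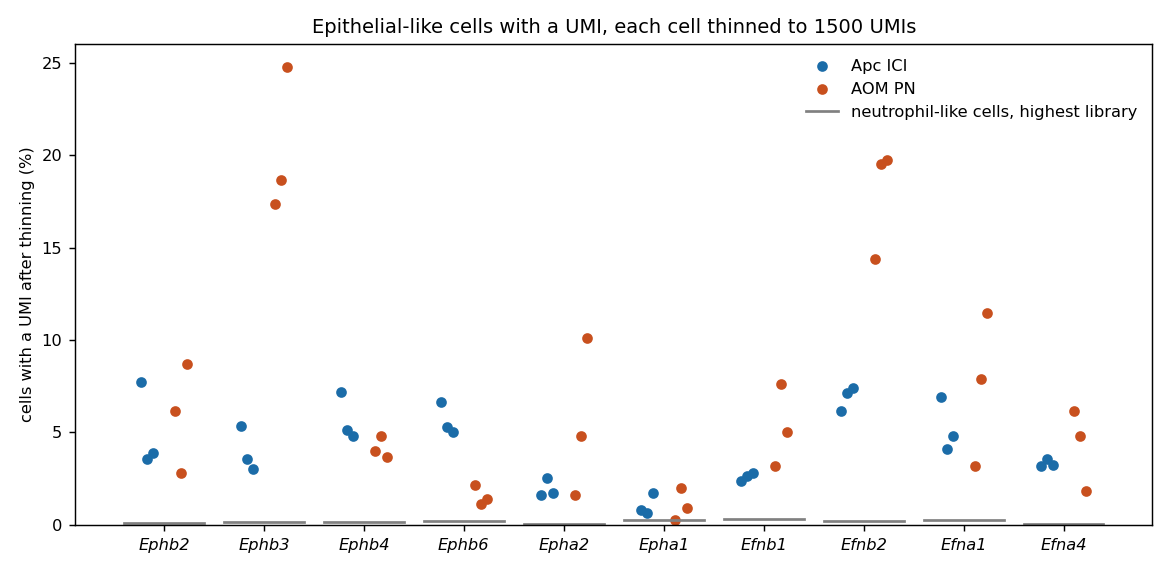
Percentage of epithelial-like cells with at least 1 UMI of each member after thinning to 1500 UMIs, one point per library, with a grey line at the highest neutrophil-like library. Ephb3 and Efnb2 reach 24.8% and 19.7% in AOM PN, and Ephb6 stays at or under 2.13% there.

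The epithelial-like cells were then divided into sub-clusters, numbered E1 to E21, again without Eph or ephrin genes. The models were spread differently over them. E1, led by Gm26917, Ptprd and Sat1 and with Lars2 and the mast cell protease gene Mcpt1 among its leading genes, held 52.2% to 55.5% of AOM PN cells and 0.965% to 1.78% of Apc ICI cells. E7, led by Wfdc18 and Gpx2 and with a median of 27798.5 UMIs per cell, held 4.16% to 8.28% of AOM PN cells but 35.5% to 54.6% of their UMIs. In Apc ICI, E4 (Ptn, Spock2, Wif1) held 28.3% to 62.7% of UMIs and had no AOM PN cell. CPM in this and the following paragraphs are of the summed UMIs without TMM scaling, and 95% intervals are exact Poisson intervals that cover counting error only.

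Among AOM PN sub-clusters of at least 50 cells, Ephb3 and Efnb2 were both highest in E13 and E1. They parted in others. E14 held Efnb2 at 229.7 CPM and Ephb3 at 42.3 CPM, and E6 held Ephb3 at 182 CPM and 0 UMIs of Efnb2. These are sums, and detection of both in the same cell was not examined. In E1, Ephb3 measured 273, 261 and 298 CPM and Efnb2 257, 281 and 272 CPM by library. E13, a smaller AOM PN sub-cluster of 125 cells led by Plk2, Tcim and Dnajb1, held Ephb3 at 392 CPM (323 to 470.0) and Efnb2 at 538 CPM (457 to 629). E1 alone gave 49.3% of the Ephb3 UMIs and 49.4% of the Efnb2 UMIs of AOM PN. In the deep E7 cells of AOM PN, Ephb3 stood at 67.0, 57.5 and 80.3 CPM and Efnb2 at 38.2, 44.6 and 28.2 CPM. So both were lower there, Efnb2 the more so.

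Signs of RNA quality and RNA of other cell types differed between the models as well. Gm26917, an rRNA-like transcript, stood at 1714 to 2520 CPM in the epithelial-like sums of Apc ICI and at 12960 to 31180 CPM in AOM PN, and Lars2 at 402 to 616 and 1382 to 2003 CPM. The mitochondrial share was 3.53% to 4.07% and 3.79% to 5.88%. Their part in the rise of Ephb3 and Efnb2 across all epithelial-like cells was not tested. Mast markers (8 of 8 detected) summed to 36.9 to 135 CPM in Apc ICI and 235 to 2810 CPM in AOM PN, where they stood at 0.151% to 1.30% of their level in mast-like cells. T/NK markers summed to 10.4 to 14.2 and 107 to 195 CPM, with 5 to 7 of 8 detected and Klrb1c or Ncr1 at 0 in each library. Endothelial markers summed to 10.2 to 11.8 CPM in Apc ICI, with 4 to 6 of 6 detected, and to 8.99 to 24.5 CPM in AOM PN, with 2 to 3 of 6 detected. Of these, Cdh5, Kdr and Tie1 were at 0 in every AOM PN library, while Vwf stood at 7.32, 13.8 and 18.4 CPM there against 3.39, 4.12 and 3.47 CPM in Apc ICI. Their part in the results was not tested. Fibroblast markers summed to at most 2.30 CPM.

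Sub-clusters that both models held were summed as an alternative chosen after seeing the data. Their mix still differed, so the cells were not matched. E7 gave 40.0% of the Apc ICI sum and 65.0% of the AOM PN sum, the cycling E11 51.3% and 2.51%, and E3 2.69% and 18.3%. Over E3, E6, E7, E11, E14 and E18, where the smaller group made up at least 10% of cells, Ephb3 rose by 1.52 ± 0.23 (edgeR adjusted p = 0.0011) and Efnb1 by 0.91 ± 0.28 (adjusted p = 0.047). Ephb6 fell by 2.35 ± 0.38 on the log2 scale (adjusted p = 0.0017) and Ephb4 by 1.27 ± 0.32 (adjusted p = 0.021). Of all Apc ICI UMIs of Ephb6, 58.6% lay in E4, outside these sub-clusters. Within them, E11 of Apc ICI held 55 UMIs of Ephb6, at 22.9 CPM. E7 held Ephb6 at 8.54 CPM in Apc ICI and 3.13 CPM in AOM PN, on 16 and 12 UMIs. Efnb2 differed by 0.30 ± 0.23 and no longer passed (adjusted p = 0.45). In E7 alone, Apc ICI had 57 cells (8, 27 and 22 by library) and AOM PN had 127 (52, 55 and 20). No minimum of cells per library was set for this sum, and 8 of the 10 members could be tested. Ephb3 rose in E7 by 1.93 ± 0.29 (edgeR adjusted p = 0.0058). There its Apc ICI libraries stood at 29.8, 14.99 and 15.9 CPM, below all AOM PN libraries. Efnb2 was level in E7, at 36.4, 45.0 and 35.8 CPM in Apc ICI, with a log2 change of 0.02 ± 0.24 (adjusted p = 0.99). It was not level in every shared sub-cluster. In E11 it stood at 40.3 CPM (32.7 to 49.2) in Apc ICI and 182.6 CPM (120 to 266) in AOM PN, on 97 and 27 UMIs. E6 went the other way, at 39.3 CPM on 8 UMIs in Apc ICI and 0 UMIs in AOM PN. E11 and E6 were not tested alone. Ephb2 in E7 stood at 59.5, 45.0 and 63.6 CPM for Apc ICI and 25.7, 34.04 and 41.2 CPM for AOM PN, a log2 change of -0.68 ± 0.26 that did not pass (adjusted p = 0.19).

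**Figure D3:**
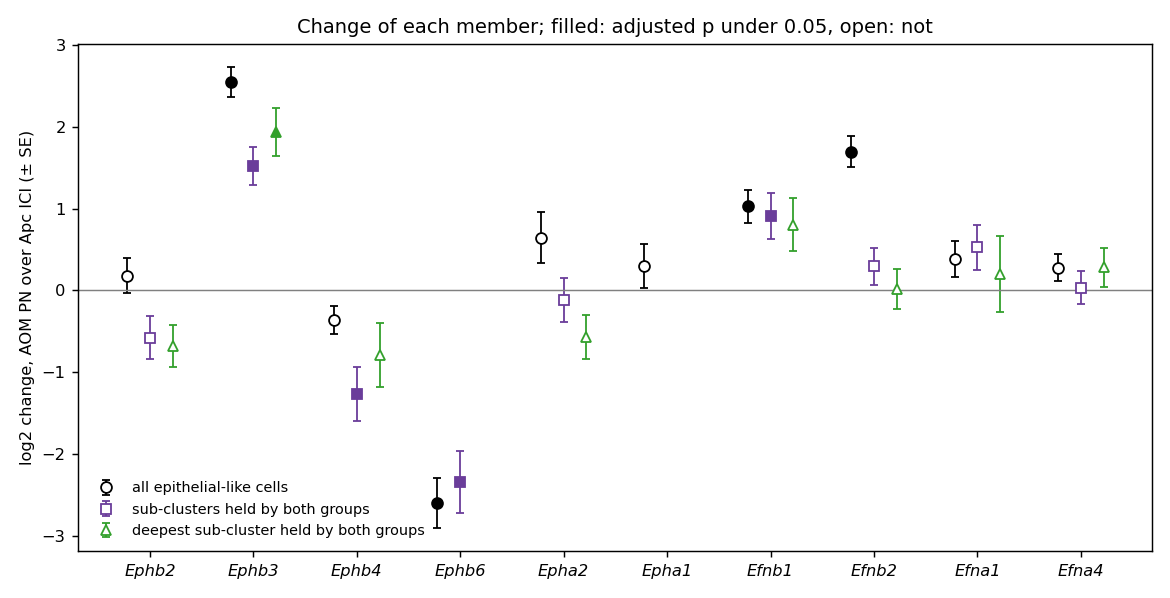
Log2 change of each member between the models with its SE, for all epithelial-like cells, for sub-clusters held by both models and for the deepest of these. Filled symbols passed an adjusted p of 0.05; Ephb3 is filled in all 3 sets, whereas Efnb2 falls from 1.70 to 0.30 and 0.02.

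Among AOM PN sub-clusters of at least 50 cells, Efnb2 and all receptors except Ephb6 were highest in E13. For Ephb2, Ephb4, Epha2 and Epha1 this lead was within counting error. Ephb2 stood at 71.5 CPM (44.3 to 109) in E13 and 67.6 CPM in E11. Ephb4 stood at 68.1 CPM (41.6 to 105) in E13 and 58.1 CPM in E1. Epha2 stood at 95.3 CPM (63.4 to 138) in E13. Epha1 had 4 UMIs in E13 (13.6 CPM) and 2 UMIs in E11 (13.5 CPM). Efnb1 and Efna1 were highest in E14 instead, at 127 CPM (91.5 to 172) and 142 CPM (104 to 189). E14 was led by Saa1, Lypd8, Clca4b, Dmbt1, Reg3g, Reg3b and Krt20, and had 84 AOM PN cells. Of these genes, Lypd8, Clca4b and Krt20 are known from surface colonocytes. Efnb2 stood at 229.7 CPM and Epha2 at 78.6 CPM in E14, while Ephb4 had 0 UMIs, which allows up to 9.07 CPM by the limit of 3 counts and 11.1 CPM by the exact interval. Ephb2 stood at 18.1 CPM there (6.65 to 39.5) against 59.9 CPM in E1 (48.6 to 73.0). In Apc ICI, E14 had 12 cells and is not read.

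In Apc ICI the EphB receptors peaked in 2 kinds of cell. E2, which had Prox1 and Axin2 among its leading genes, with 416 cells, held the highest Ephb2 (68.5 CPM, 57.5 to 81.0), Ephb4 (63.0 CPM, 52.5 to 75.0) and Ephb6 (75.5 CPM, 63.9 to 88.6). Prox1 and Axin2 are known targets of Wnt signalling in intestinal tumours. Ephb3 peaked instead in E17, at 135 CPM (110 to 164) and at 102, 176 and 122 CPM by library. E17 was led by Defa24, Lyz1, Defa30 and Itln1, products of Paneth and goblet cells, and had 85 Apc ICI cells. EphB3 is known in mice as the receptor that holds Paneth cells at the crypt base. In E17, Ephb6 had 3 UMIs, at 4.05 CPM. E9, led by Krt17, Cald1 and Sprr1a, held the highest Apc ICI levels of Epha2 (52.9 CPM, 43.6 to 63.8), Efna1 (75.4 CPM, 64.1 to 88.1) and Efnb1 (33.4 CPM, 26.03 to 42.2).

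Over the 12 Apc ICI and the 8 AOM PN sub-clusters, the Pearson correlation of log2(CPM + 1) between Ephb2 and Lgr5, the stem cell marker, was 0.82 and 0.80, and between Ephb4 and Lgr5 0.72 and 0.96. Following Lgr5 was not particular to these receptors. In Apc ICI and AOM PN, Epha1 correlated with Lgr5 at 0.96 and 0.84 and Ephb3 at 0.66 and 0.79. The ligand Efnb1 did so at 0.71 and 0.13, and Efnb2 at 0.67 and 0.41. Ephb6 did so at 0.26 and 0.56. Ascl2, also a marker of stem cells, was not followed in the same way. Its correlation was -0.37 and -0.065 with Ephb2, and -0.45 and 0.43 with Ephb4. Efnb1 and Efna1 correlated at 0.82 and 0.94, and Ephb4 and Efnb2 at 0.98 and 0.40. Ephb6 followed Axin2 in Apc ICI (0.85) more than in AOM PN (0.19), a difference that was not tested. These are descriptions, since sub-clusters share libraries and differ in depth.

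**Figure D4:**
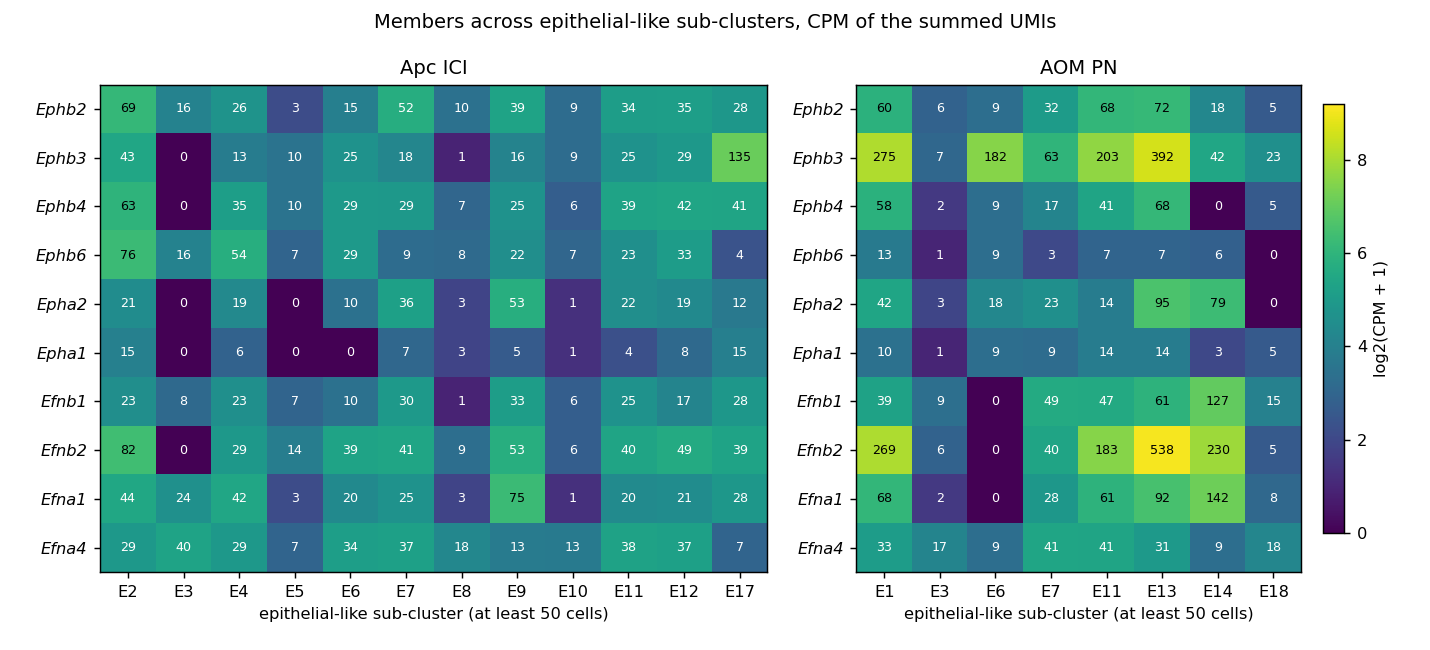
CPM of each member (rows) in epithelial-like sub-clusters of at least 50 cells (columns) of each model, coloured as log2(CPM + 1). Ephb3 is highest in E13 and E1 of AOM PN and, in Apc ICI, in E17.

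The immune cells of the same tumours gave the background. By group mean, every member stood higher in epithelial-like cells than in each immune class measured in at least 2 libraries of the group. The 8 epithelial markers, summed, stood in the immune and erythroid classes at 0.0796% to 2.92% of their epithelial-like level, which gauges epithelial RNA outside its cells. Ephb3 did not exceed 4.86% of its epithelial-like level in neutrophil-like cells and 2.98% in monocyte/macrophage-like cells. Several members stood above that gauge. Efnb1 did so most widely, at 6.39% to 16.3% of its epithelial-like level in monocyte/macrophage-like cells, 4.31% to 23.1% in T/NK-like cells and 3.23% to 16.6% in dendritic-like cells, over all 6 libraries each. Epha2 stood at 3.49% to 17.2% in monocyte/macrophage-like cells.

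Efnb2 was present in mast-like cells, of which AOM PN had 1154, 216 and 2392 and Apc ICI 14, 21 and 18. In AOM PN it measured 21.8, 21.9 and 31.3 CPM there, 19.9% to 23.7% of its epithelial-like level, while epithelial markers stood at 0.305% to 0.642%. This was below the 269 CPM of Efnb2 in the epithelial-like sub-cluster E1, where Mcpt1 was among the leading genes. After thinning it was detected in 3.28% to 5.25% of AOM PN mast-like cells, against at most 0.234% of neutrophil-like cells. Efnb1 stood at 6.38, 7.29 and 2.32 CPM in mast-like cells. The few Apc ICI mast-like cells held 3, 2 and 7 UMIs of Efnb2 and are not read further. Efnb2 also stood at 16.8, 7.38 and 1.74 CPM in dendritic-like cells of Apc ICI, on 38 UMIs, and at 1.25 to 2.40 CPM in those of AOM PN. Epha2 was present in dendritic-like cells, at 8.08, 9.23 and 1.74 CPM for Apc ICI and 4.18, 6.14 and 10.4 CPM in AOM PN, 10.3% to 44.0% of its epithelial-like level. In plasma-like cells of AOM PN it stood at 1.20, 14.8 and 19.3 CPM, on 37 UMIs. Ephb6, known in T cells as well, was present in T/NK-like cells at 2.88, 3.84 and 5.94 CPM for Apc ICI and 2.14, 1.83 and 2.00 CPM in AOM PN. Its mean there was 10.9% of its epithelial-like mean in Apc ICI and 32.2% in AOM PN. Epha1 in neutrophil-like cells stood at 0.505 to 1.64 CPM, 7.74% to 19.4% of its epithelial-like level, with the overlap with Zyx named above.

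**Figure D5:**
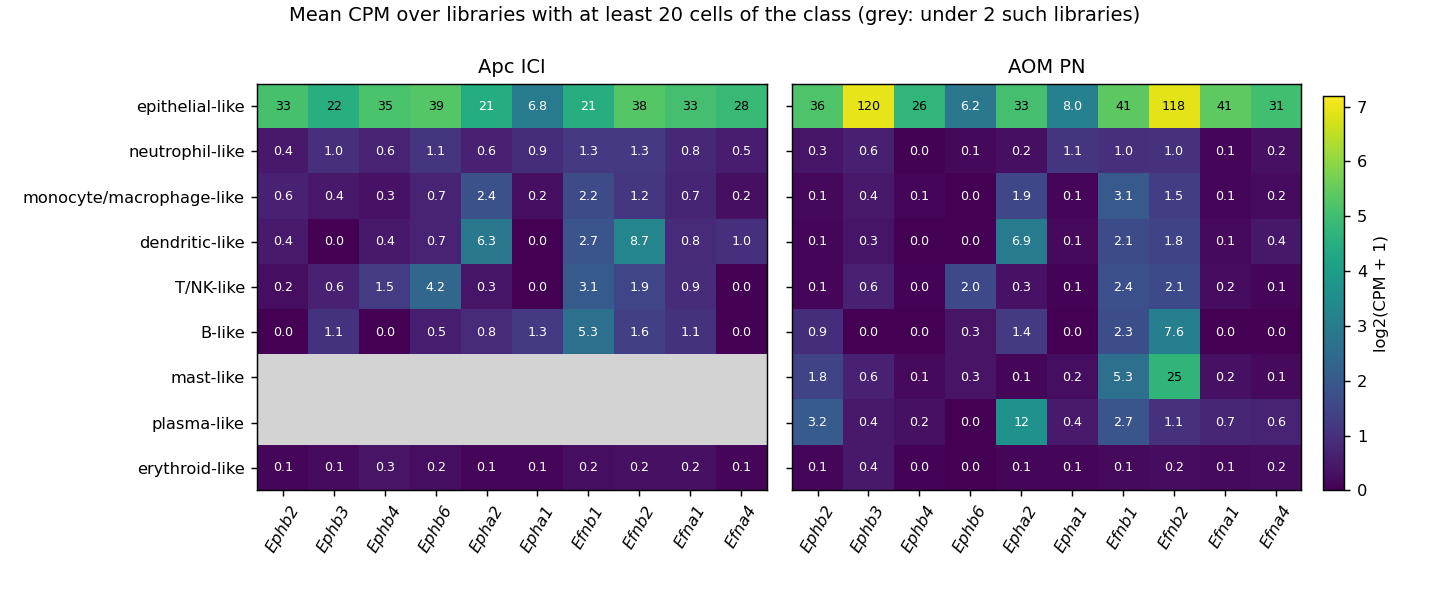
Mean CPM of each member (columns) in each cell class (rows), over libraries with at least 20 cells of the class, coloured as log2(CPM + 1). Grey marks fewer than 2 such libraries. Each member is highest in the epithelial-like row of both models, and Efnb2 in mast-like cells of AOM PN stands at 21.2% of its epithelial-like mean.

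No member passed edgeR's test between the models in any single class with a filter on low counts, where 3 members could be tested in neutrophil-like cells, 3 in monocyte/macrophage-like, 2 in T/NK-like, 1 in dendritic-like and 0 in B-like and erythroid-like cells. At an unadjusted p under 0.05 there was 1 member, in monocyte/macrophage-like cells, and 0 in the other classes. DESeq2, run without that filter, called 1 member, Ephb6 as lower in neutrophil-like cells, and 0 in the other classes. The share of all genes that passed was 30.4% in neutrophil-like, 2.80% in monocyte/macrophage-like, 3.32% in T/NK-like and 2.06% in dendritic-like cells. Mast-like and plasma-like cells had no test, since few Apc ICI libraries held 20 of them. With all immune-like cells pooled, Ephb6 fell by 1.69 ± 0.36 (edgeR adjusted p = 0.040) and Efna1 by 2.46 ± 0.48 (adjusted p = 0.035) on the log2 scale, beside 7.32% of all genes. These rested on 57 and 57 UMIs of Ephb6 and on 39 and 20 UMIs of Efna1 in Apc ICI and AOM PN.

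Whether a member changed differently in epithelial-like cells was tested as an interaction, with library as a block. Of the 10 members 3 passed, beside 19.4% of all 14637 genes. The change of Ephb3 was larger in epithelial-like than in pooled immune-like cells by 3.01 ± 0.39 on the log2 scale (edgeR adjusted p = 0.00056), and the direction and call held with neutrophil-like or monocyte/macrophage-like cells alone. Efna1 (2.81 ± 0.52, adjusted p = 0.0038) and Ephb4 (2.67 ± 0.55, adjusted p = 0.0072) passed as well. For all 3 members the immune side was near the gauge of free RNA. All immune-like cells of Apc ICI and AOM PN held 37 and 77 UMIs of Ephb3, and 29 and 10 UMIs of Ephb4. The epithelial-like change of Efna1 and Ephb4 had not passed. For Efnb2 the difference was 0.49 ± 0.44 (adjusted p = 0.48), with mast-like cells in the pool, and 1.63 with neutrophil-like cells alone (adjusted p = 0.023). Ephb6 did not differ beyond its error (-0.93 ± 0.49, adjusted p = 0.21).

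The genes whose level followed Ephb2 and Ephb3 most closely were found over 49 sums of library and class, as the Pearson correlation of log2(CPM + 1) among 11968 genes. For Ephb3 they were Gm53 (0.98), Slc44a4 (0.98), Samd12 (0.98), Ngef (0.97) and Kcnq1 (0.97). For Ephb2 they were AI661453 (0.96), Fam171a1 (0.94), Tmem98 (0.93), Vldlr (0.93) and Hoxa3 (0.93). Most of the sums were of immune-like and erythroid-like classes, where Ephb2 and Ephb3 were low. The correlations therefore include the contrast between epithelial-like and other classes, and likeness within epithelial-like cells was not read apart from it. The sums include the epithelial-like ones, so how these genes change between the models there is not independent of the choice.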

How the data were processed

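For each library the authors deposited unnormalized UMI counts of every gene by cell barcode, made with Cell Ranger 6.1.2 against mm10, per the submitters' processing notes. Barcodes needed 200 detected genes and no more than 20% of UMIs from mitochondrial genes, predicted doublets (0.8% expected per 1000 barcodes) were removed, and Leiden clusters (resolution 1, leidenalg 0.10.2) were named from marker lists needing 3 or more markers. Class names are a reconstruction and may depart from the study's, and part of the naming was settled with the clusters in view. Sub-clusters led by erythroid, neutrophil or endothelial genes, and 1 of low UMIs without epithelial markers, were left out. Counts were summed per library and class (at least 20 cells) and tested with edgeR 4.0.16 (R 4.3.3, TMM, filterByExpr, quasi-likelihood), tested on simulated data first. SE is the log2 change over the root of F. All 10 members are named, as are family genes with a test and the 3 partners with the largest rise and fall. The 5 genes most like Ephb2 and Ephb3 are named too. Members and lists were chosen with earlier results of these data known. Normalization, DESeq2 1.42.0, filters, doublets, depth, gate and left-out libraries were alternatives. Intervals cover counting error only.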

Additional observations from a re-analysis of the deposited data

Results flagged for a closer look

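The change between the models differed between epithelial-like and pooled immune-like cells of the same libraries for 3 members, by a test of the difference itself. For Ephb3 the difference was 3.01 ± 0.39 on the log2 scale (edgeR adjusted p = 0.00056), with 37 and 77 immune-like UMIs in Apc ICI and AOM PN. For Efna1 it was 2.81 ± 0.52 (edgeR adjusted p = 0.0038), with 39 and 20 immune-like UMIs. For Ephb4 it was 2.67 ± 0.55 (edgeR adjusted p = 0.0072), with 29 and 10 immune-like UMIs. The immune-like level of all 3 members was near the gauge of free epithelial RNA. With monocyte/macrophage-like cells alone the Ephb4 difference was 1.03 and did not pass (edgeR adjusted p = 0.47).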

How the results depend on the processing

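The calls of Ephb3, Efnb2, Efnb1 and Ephb6 held under every planned setting: other size factors, DESeq2, no filter on low counts, thinning, doublets kept, a marker gate, haemoglobin removed and each library left out. The settings limited to sub-clusters held by both models, or to the deepest of them (E7), were chosen after seeing the data. There the count of all genes called fell from 4172 to 1371 and 310, and to 1998 with thinning, on fewer cells or UMIs. With thinning 1 other family gene and 8 partners were called, in shared sub-clusters 0 and 2, and in E7 1 member, 0 other family genes and 0 partners. In shared sub-clusters and in E7 the log2 change was 0.30 and 0.020 for Efnb2, -0.58 and -0.68 for Ephb2, and -0.12 and -0.57 for Epha2. Efnb1 changed by 0.80 in E7 and did not pass there. Ephb4 passed at -0.60 with doublets kept, -0.59 with the gate and -1.27 in shared sub-clusters, and Efna4 at 0.37 with doublets kept. With a library left out, Ephb2 ranged from -0.035 to 0.31 and Ephb4 from -0.48 to -0.29. The causes were not tested.

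Without a filter on low counts 1 member each was called in T/NK-like, dendritic-like and monocyte/macrophage-like cells and 3 in neutrophil-like cells, where DESeq2 called 1 and leaving out a library gave 0 to 1. The difference between epithelial-like and immune-like change was 0.34 for Ephb6 and -0.64 for Epha1 with neutrophil-like cells alone, and 1.57 for Ephb6 with monocyte/macrophage-like cells. With a library left out it ranged from -0.19 to 0.73 for Ephb2 and from -0.021 to 0.96 for Efnb2. For the share of cells with a UMI, no thinning gave differences in percentage points of -15.2 for Ephb2, -5.16 for Epha2, -8.17 for Efnb1, -11.3 for Efna1 and -13.5 for Efna4. Doublets kept gave -0.20 for Ephb2, 0.15 for Epha1 and 1.43 for Efnb1, and thinning to 1000 UMIs gave 0.27 for Ephb4 and 0.34 for Epha1. With a library left out the difference ranged from -0.59 to 2.35 for Ephb2, from -0.47 to 0.38 for Epha1 and from -0.026 to 2.12 for Efna4. The EphB to ephrin-B ratio with Ephb2, Ephb3, Efnb1 and Efnb2 alone differed by 0.10, and in thinned cells by -0.58 (exact permutation p = 0.4).

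Pairing by replicate number was not seen, as same-numbered libraries correlated at -0.20, 0.18 and -0.18 in their deviations. With deviations taken from means of 3 libraries, this check cannot exclude pairing. With the replicate block 1834 genes rose and 1605 fell, with 3 members higher and 1 lower, and no call of a member changed. Depth limits Ephb6, which had 47 UMIs in AOM PN epithelial-like cells, and the members in immune-like cells.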
